A study of Mus musculus with 4 samples.

Results

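Egr1, Egr2, Nr4a1, Homer1, Btg2, Gadd45b, Gadd45g, Inhba, Atf3 and Arc are genes that neurons switch on after synaptic activity, and their level was described here in the CA1 field of the hippocampus of mice that had received no shock. Members were all probe sets that the platform annotation assigns to exactly 1 of these 10 symbols. This gave 9 of the 10 genes, out of 8252 genes that the annotation names in this way, through 14 of the 12488 probe sets on the array. Arc was not analysed here, since the annotation used pairs no probe set with its symbol. Egr1, Homer1 and Gadd45b have more than 1 probe set, with 2 each, and Atf3 has 3.

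The mice were young C57BL/6J males that the experimenter handled and did not treat further, and total RNA was taken from their CA1. There was 1 expression array for each of 4 extraction times, 1, 2, 4 and 6 hr, counted from the last shock given to a separate set of mice whose arrays were not analysed here. The labels state no transgene or deletion, and they do not say how many animals stand behind an array. With 1 array a time, a difference between times cannot be told apart from a difference between samples, dissections or arrays.

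Activity induced genes are transcribed rapidly when calcium entry and kinase cascades activate factors already bound at their promoters, chiefly CREB at cyclic AMP response elements and the serum response factor at CArG boxes. Some encode transcription factors that pass the signal on (the Egr zinc finger factors, the orphan nuclear receptor Nr4a1, the basic leucine zipper factor Atf3). Others encode effectors that act at the synapse, outside the cell or on cell growth and stress signalling (Homer1, Arc, Inhba, Btg2, the Gadd45 proteins). In the hippocampus they are widely used as markers of neurons that were recently active, and Egr1 is known for a high resting level in CA1.

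RefSeq promoter windows on GRCm38.p6 were found for 8 of the 10 members, 13 windows in all because Egr2 and Homer1 have several annotated starts. Egr1 and Arc had no window, so their promoters were not searched and nothing below applies to them. Within the 250 bases before each start, the CRE core TGACG was searched on both strands and occurred in 7 of the 13 windows, covering Egr2, Nr4a1, Homer1, Btg2 and Atf3. It occurred in 17.8% of all 32851 windows of the same length. The full element TGACGTCA, which holds the core on both strands, was found for Btg2 alone, against 1.55% of all windows. A CArG box was found for Egr2 alone, in 4 of its 5 windows, against 1.47% of all windows, and the Egr binding site GCGTGGGCG was found in no member window, against 0.536% of all windows. The Egr2 windows that begin at 67537619, 67537620 and 67537680 overlap, so the same cores and CArG box enter these counts more than once. A count of windows is therefore not a count of separate sequences. A match is a description of the letters and not evidence of binding. The windows of 4 members are printed because they hold the most such matches among the members and include Egr2, the member that differed most clearly on 1 array. Where a gene had several starts, the window with the most matches was taken. Capitals mark CRE cores, the full CRE and the CArG box, and each run reads 5′ to 3′ on the gene's own strand.
Egr2, chr10:67537619-67537868, plus strand: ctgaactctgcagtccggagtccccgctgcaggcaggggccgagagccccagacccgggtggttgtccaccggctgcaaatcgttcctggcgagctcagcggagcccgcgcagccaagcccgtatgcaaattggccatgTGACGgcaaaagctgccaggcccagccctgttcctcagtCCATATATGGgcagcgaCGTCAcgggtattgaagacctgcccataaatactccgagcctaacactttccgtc
Nr4a1, chr15:101266596-101266845, plus strand: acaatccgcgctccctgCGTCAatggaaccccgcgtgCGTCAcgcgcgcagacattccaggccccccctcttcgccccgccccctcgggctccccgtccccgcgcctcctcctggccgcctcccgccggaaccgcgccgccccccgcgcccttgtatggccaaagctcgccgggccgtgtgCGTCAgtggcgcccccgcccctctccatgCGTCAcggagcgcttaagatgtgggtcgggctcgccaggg
Homer1, chr13:93303507-93303756, plus strand: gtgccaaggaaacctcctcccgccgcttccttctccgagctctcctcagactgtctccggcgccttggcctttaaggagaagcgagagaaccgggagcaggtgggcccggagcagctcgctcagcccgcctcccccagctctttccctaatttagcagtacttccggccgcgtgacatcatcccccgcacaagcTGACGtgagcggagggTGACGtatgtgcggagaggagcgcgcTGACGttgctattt
Btg2, chr1:134079156-134079405, minus strand: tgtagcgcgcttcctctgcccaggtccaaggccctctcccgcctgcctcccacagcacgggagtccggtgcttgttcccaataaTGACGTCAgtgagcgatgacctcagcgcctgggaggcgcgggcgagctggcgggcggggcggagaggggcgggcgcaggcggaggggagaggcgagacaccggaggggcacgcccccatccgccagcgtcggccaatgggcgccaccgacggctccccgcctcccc
The Egr2 window holds 2 CRE cores on either side of 1 CArG box, the Nr4a1 window 4 cores and no CArG box, the Homer1 window 3 cores close to the start, and the Btg2 window 1 full CRE.

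Brightness is given here as the deposited linear intensity, which had the same overall level on each array when deposited. A floor was put at 54.6, the 25th percentile over the 4 arrays. Dimmer values were raised to it before log2 was taken and have no order among themselves. The share of values under the floor ran from 23.4% to 28.3%, with the highest at 2 hr. The 3' to 5' ratio of the Gapdh control, which grows as RNA degrades, ran from 4.84 to 7.56, also with the highest at 2 hr. That of the Actb control ran from 2.99 to 3.44, with the highest at 1 hr, and was 3.20 at 2 hr. Of the 8 CA1 pyramidal marker genes listed, 5 were tested, and their summed intensity ran from 6884 to 8754. Among them Wfs1, a marker of CA1 neurons, read 1753, 2594, 2574 and 1668 at 1, 2, 4 and 6 hr, well above the floor on every array. Of 10 dentate granule markers 6 were tested, at a sum of 5102 to 6264, and none of these had a value under the floor. Prox1, which defines granule neurons, was too dim to be tested. It read 63.4, 14.6, 18.1 and 106.6, with 2 of its 4 values under the floor. Of 7 CA3 pyramidal markers 3 were tested, at a sum of 2342 to 3717. The share of dentate or CA3 tissue in the samples was not tested. Brightness differs between probe sets for reasons of probe sequence, so a level is compared between arrays and not between genes.

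Unshocked CA1 gave signal above the floor on all 4 arrays for at least 1 probe set of each of the 9 genes. A test over the hours was made for the 7453 probe sets whose mean log2 value lay above the 40th percentile. Among them were 10 of the 14 member probe sets, again for all 9 genes, and the remaining 4 probe sets are described by value alone. All of the 10 except those of Egr2 and Atf3 varied by less than 2-fold over the arrays. In such tissue RNA, fewer cells that express a gene and less of its RNA per cell cannot be told apart.

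**Figure D1:**
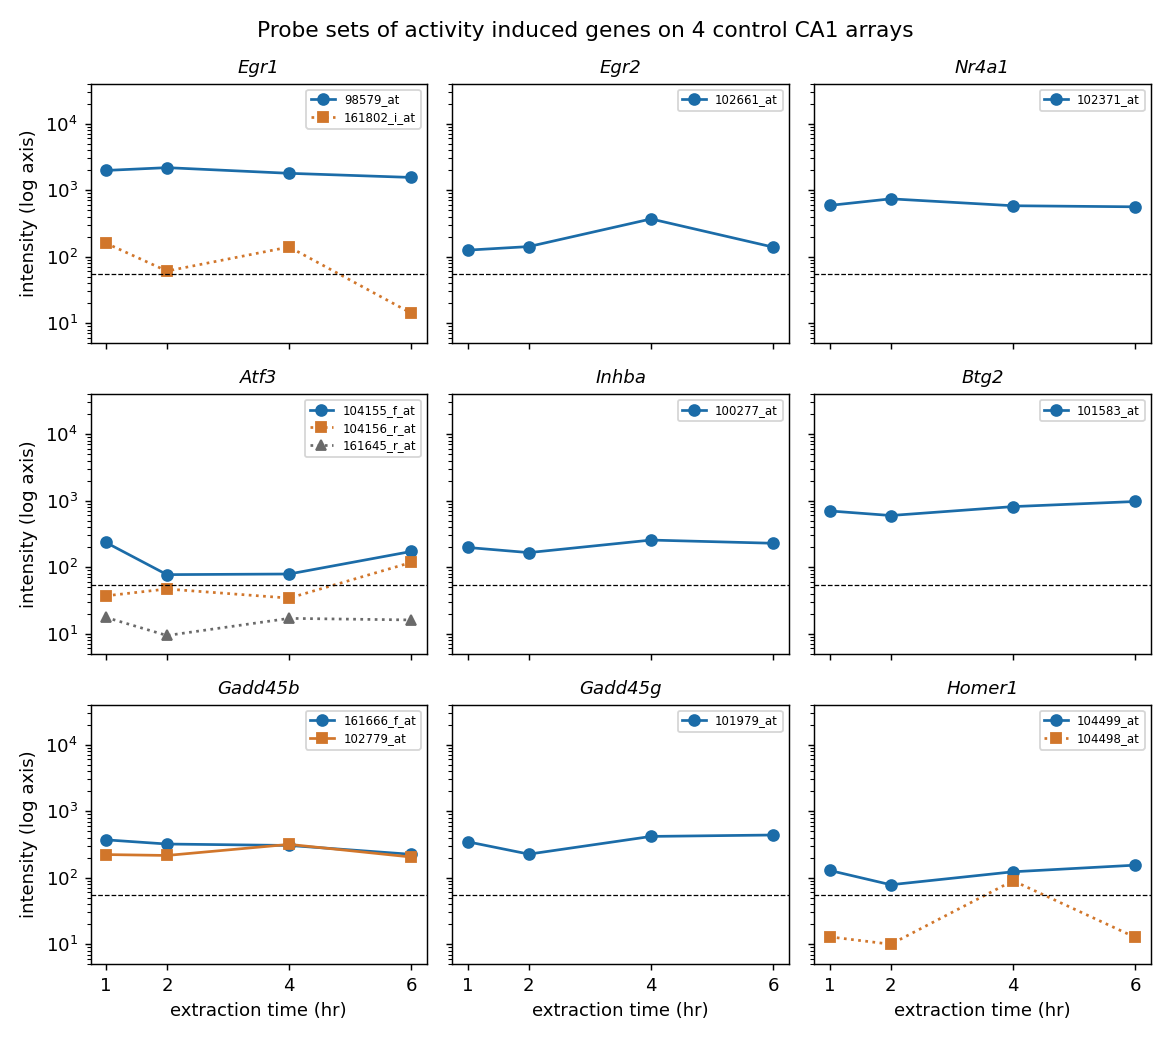
Deposited intensity (log axis) of the 14 member probe sets against extraction time in hr, 1 panel a gene and 1 point an array; dotted lines join probe sets that were too dim on average to be tested, and the dashed line is the floor of 54.6. Egr2 is high on the 4 hr array at 369.5, while Egr1 (98579_at) and Nr4a1 stay within 1.40-fold and 1.32-fold.

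Egr1, a zinc finger transcription factor induced by synaptic activity, read 1980.4, 2182, 1793 and 1554 at 1, 2, 4 and 6 hr through probe set 98579_at. It was highest at 2 hr and lowest at 6 hr, and averaged 1877 ± 268 (SD over the 4 arrays). The whole range was 1.40-fold. The other Egr1 probe set, 161802_i_at, was dim, at 160.0, 60.8 and 139.9 at 1, 2 and 4 hr and under the floor at 6 hr. Both probe sets were lowest at 6 hr, but they differed at 2 hr, where the bright one was highest and the dim one was the lowest of its values above the floor. The suffixes _i_at, _f_at and _r_at mark probe sets that depart from the standard design in different ways. Whether such probe sets also read related transcripts was not tested.

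Egr2, a related zinc finger factor, read 125, 142, 369.5 and 139 at 1, 2, 4 and 6 hr. The 1, 2 and 6 hr arrays lay close together, and the 4 hr array stood apart from all of them. Its value there was 2.60-fold that of the 2 hr array, the next highest, a gap of 1.38 log2 units. Across all probe sets tested, 1.36% lay at least 1 log2 unit (2-fold) above each of the other 3 arrays on some array, and 0.322% did so on the 4 hr array. Egr2 was the only member among the 10 tested to do so, and it has a single probe set, so no other probe set bears on the value. There is no replicate at 4 hr, and no p-value belongs to this difference.

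Nr4a1, an orphan nuclear receptor, read 590.1, 741, 583 and 562 at 1, 2, 4 and 6 hr. It had the narrowest range of the 10 tested member probe sets, 0.40 log2 units or 1.32-fold, with the 2 hr array above the others. Its average was 619 ± 82.0 (SD over the 4 arrays). Egr1 and Nr4a1 were both highest at 2 hr and lowest at 6 hr, and of the 45 pairs of tested member probe sets theirs differed least, by a root mean square of 0.102 log2 units after each was centred on its own mean over the 4 arrays. Such closeness was common for profiles this flat. Of 6709 other probe sets with 1 symbol, 347 lay within 0.1 log2 units of Nr4a1 and 207 of Egr1.

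Atf3, a factor of the CREB family induced by stress and nerve injury, read 236, 77.3, 79.0 and 173 at 1, 2, 4 and 6 hr through 104155_f_at. The 2 and 4 hr arrays were low and the 1 and 6 hr arrays high, a range of 3.05-fold and the widest of the tested members. A range over the 4 arrays of 1 log2 unit or more was found for 2 of the 10 tested member probe sets, those of Egr2 and Atf3, against 25.3% of all probe sets tested. That count was 1 when the 4 hr array was left out, with Atf3 remaining. It was also 1, with Egr2 remaining, when the 1 hr or the 6 hr array was left out. Atf3 then fell under the filter on dim probe sets and was not counted, while its range was 1.16 and 1.61 log2 units. The other probe sets of Atf3 gave another picture. Probe set 104156_r_at read 118 at 6 hr, at least 2.16-fold above the other arrays, which were all under the floor, and 161645_r_at was under the floor on every array, at 9.4 to 17.6. The high value at 1 hr was therefore seen through 1 of 3 probe sets.

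Inhba, the subunit of activin A, a secreted ligand of the TGF-beta family, read 198, 166, 256 and 229 at 1, 2, 4 and 6 hr. It was lowest at 2 hr and highest at 4 hr, within a range of 1.54-fold, and averaged 212 ± 39.0 (SD over the 4 arrays).

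Btg2, an antiproliferative co-regulator that also promotes mRNA deadenylation, read 702, 599, 815 and 973 at 1, 2, 4 and 6 hr. It was lowest at 2 hr and highest at 6 hr, a range of 1.62-fold around a mean of 772 ± 160.3 (SD over the 4 arrays). Gadd45g, a stress sensor that activates the kinase Map3k4, read 347, 226, 418 and 439 and had the same order of arrays over a range of 1.94-fold. Its paralog Gadd45b, which has also been tied to activity dependent DNA demethylation in the mouse hippocampus, read 223, 216, 317 and 205 through 102779_at. There the 4 hr array was 1.42-fold above the next highest and the others lay together. The other Gadd45b probe set, 161666_f_at, read 371, 321, 306 and 225, highest at 1 hr and lowest at 6 hr, so the 4 hr value was high through 1 of the 2 probe sets. Both Gadd45b probe sets had their lowest value at 6 hr, where Gadd45g had its highest.

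Homer1, a scaffold that links group I metabotropic glutamate receptors to intracellular calcium stores and has a short isoform induced by activity, read 129, 78.4, 123 and 154.5 at 1, 2, 4 and 6 hr through 104499_at. It was lowest at 2 hr and highest at 6 hr, a range of 1.97-fold. The other probe set, 104498_at, was under the floor at 1, 2 and 6 hr and read 90.2 at 4 hr, at least 1.65-fold above the other arrays. The Homer1 isoform that each probe set reports was not determined. The 4 hr value of the dim probe set had no counterpart in the brighter one, where the 4 hr array came after the 6 and 1 hr arrays.

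Of the 10 tested member probe sets 5 were lowest on the 2 hr array, namely those of Homer1, Btg2, Gadd45g, Inhba and Atf3, against 29% of all probe sets tested. Another 4 were lowest at 6 hr, against 22.3%, and none at 4 hr, against 24.3%. Set against the mean of the remaining arrays, the 10 had a median difference of -0.42 log2 units at 2 hr, where that of all probe sets tested was -0.01. The 2 hr array also had the lowest median intensity of the 4, at 173 against 198 to 204 on the others, and the highest Gapdh 3' to 5' ratio, while its Actb ratio of 3.20 lay below those at 1 and 4 hr. Their part in the members' low values was not tested. Egr1 and Nr4a1 were highest on that same array. The highest value of 3 member probe sets fell on the 4 hr array, against 26.5% of all probe sets tested. That of 3 others fell on the 6 hr array, against 23.2%. Another 2 peaked on the 1 hr array, against 25.8%, and 2 on the 2 hr array, against 24.4%. These counts lay near the shares of all probe sets tested, so no peak array is read from them. Gadd45b enters with both of its probe sets, highest at 4 hr and at 1 hr.

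**Figure D2:**
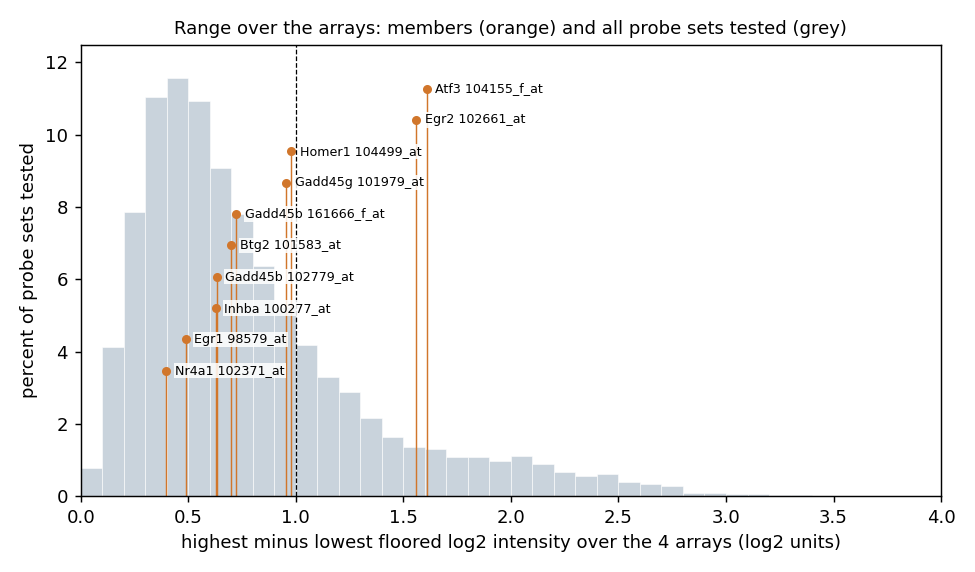
Grey bars give the percent of the 7453 probe sets tested at each range (highest minus lowest floored log2 intensity over the 4 arrays, in log2 units), and orange stems mark the 10 tested member probe sets at their own range, with stem height carrying no value. Members run from 0.40 (Nr4a1) to 1.61 (Atf3), and the dashed line at 1 log2 unit has 2 of the 10 to its right.

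The median range of the 10 tested member probe sets was 0.71 log2 units, beside 0.64 for all 7453 probe sets tested. A range of 0.58 log2 units (1.5-fold) or more was reached by 8 of the 10, against 55.6% of all. No tested member lay at least 1 log2 unit below each of the other 3 arrays, which 6.37% of all probe sets tested did. In either direction 1 of 10 members stood apart by that amount, against 7.53% of all. When the 2 hr array was left out that count was 2, Egr2 and Atf3, against 10% of all. The spread of the members as a set lay near that of the array as a whole.

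No member passed the test of a straight line over the hours. In limma's test with Benjamini-Hochberg adjustment over all 7453 probe sets, 0 of the 10 member probe sets passed at 0.05 and 0% of all probe sets did. At an unadjusted p under 0.05 there were 0 of 10 members and 382 of 7453 probe sets (5.13%), and ordinary least squares gave 0 and 333 over all probe sets after and before adjustment. Slopes above 0 were found for 6 of the 10, against 50.9% of all. The steepest was that of Gadd45g, with an hourly gain of 0.13 ± 0.09 log2 units (SE; adjusted p = 1.00 in limma), followed by Btg2 at 0.12 ± 0.07 (limma adjusted p = 1.00). In the other direction were the Gadd45b probe set 161666_f_at at -0.13 ± 0.06 (adjusted p = 0.973 in limma, the smallest of the members) and Egr1 at -0.08 ± 0.06. The Gadd45b probe set 102779_at had a slope of 0.01 ± 0.08, so the 2 probe sets of this gene had slopes of opposite sign, neither past the test. With 4 arrays and 2 residual degrees of freedom, a p that misses the threshold does not show a steady level.

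**Figure D3:**
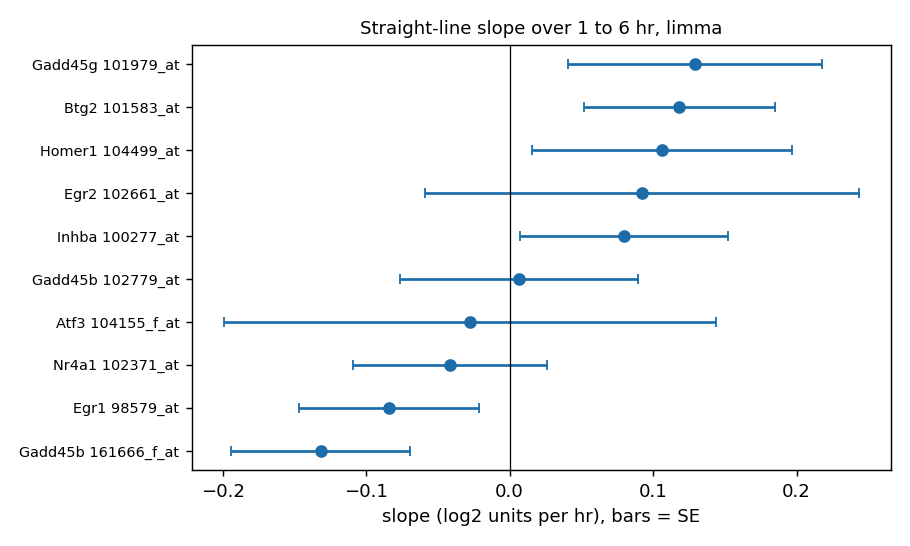
Slope in log2 units per hr from limma for the 10 tested member probe sets, with bars for the SE. Slopes run from -0.13 (Gadd45b, 161666_f_at) to 0.13 (Gadd45g), and no slope passed the test after adjustment.

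The 4 hr array, on which Egr2 stood apart, was set beside related genes on lists written for this purpose. Of the 7 AP-1 genes of the Fos and Jun families 6 were tested. None stood at least 1 log2 unit above the other arrays on any array, against 1.36% of all probe sets tested. Fosl2, a Fos family member, read 289 at 4 hr against 189, 32.4 and 184 at 1, 2 and 6 hr, the 2 hr value being under the floor. Fos itself read 212.5, 437, 311 and 282, with its highest value at 2 hr. The other Fos probe set, too dim to be tested, read 86.3 and 81.9 at 1 and 2 hr and was under the floor at 4 and 6 hr. Fosb read 527, 518, 596 and 482. Of 44 other activity induced genes 34 have a probe set and 24 were tested, each through its brightest probe set. On the 2 hr array 10 of them had their highest value, against 24.4% of all probe sets tested. On the 4 hr array 4 did so, against 26.5%. None of the 24 stood at least 1 log2 unit above the other arrays, against 1.36% of all probe sets tested. A range of 1 log2 unit or more was found for 5, against 25.3% of all.

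Among marker genes of other cells, Ttr, the thyroxine carrier made by choroid plexus, read 3217 at 4 hr against 140.3, 140.3 and 196 at 1, 2 and 6 hr, 16.4-fold above the next highest array. Of the 5 choroid plexus and ependyma markers 4 were tested, with a summed intensity of 4154 at 4 hr and 935 to 1210 on the other arrays. The other 3, Kl, Folr1 and Foxj1, were not highest at 4 hr. Dentate granule markers summed to 5119 on the 4 hr array, within their range on the others. The part of choroid plexus tissue in the Egr2 value at 4 hr was not tested.

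**Figure D4:**
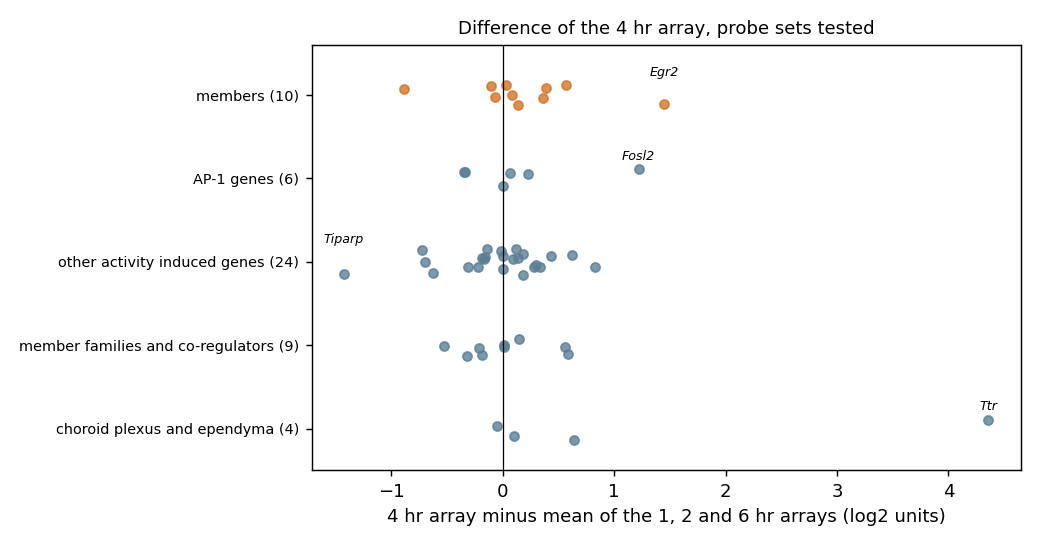
Difference of the 4 hr array from the mean of the 1, 2 and 6 hr arrays in floored log2 units, 1 point a probe set tested (members) or a gene at its brightest probe set (lists), with the number of points in brackets and genes at 1 or more in size named; vertical scatter within a row carries no value. Egr2 lies at 1.45 and Ttr farthest right. The 16.4-fold given for Ttr in the text is its gap to the next highest array, which is not the measure plotted.

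The closest paralogs and co-regulators of the members were also read. Of 18 such genes 13 have a probe set and 9 were tested, with 6 slopes above 0, a median slope of 0.04 log2 units per hr beside 0.00 for all probe sets tested, and none past the test. Beside this list and those below, 50.9% of all probe sets tested had a slope above 0. An unadjusted p under 0.05 in limma's test was found for 5.13% of them. Nr4a2, the nuclear receptor nearest to Nr4a1, read 359, 430.2, 324 and 323.5 at 1, 2, 4 and 6 hr and was highest at 2 hr, as Nr4a1 was. Its other probe set was highest at 1 hr, at 415. Nab2, a co-repressor that binds Egr factors, read 551, 528, 418 and 485, lowest on the array where Egr2 was highest. Homer3 read 437.5, 347, 596 and 441.5 and Homer2 read 426, 344, 596 and 429. Both were highest at 4 hr and lowest at 2 hr, and their readings differed by 0.0168% to 2.94% on each array.

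In the list of other activity induced genes, 10 of 24 slopes were above 0 (median -0.02 log2 units per hr), and 0 passed after adjustment while 1 had an unadjusted p under 0.05. The largest positive differences of 4 and 6 hr from 1 and 2 hr were those of Klf4, a zinc finger factor, at 0.54 log2 units, and Plk3, a stress responsive kinase, at 0.40. The largest negative ones were those of Ccn2, a matricellular protein, at -1.20 and Tiparp, an ADP-ribosyltransferase, at -0.40. Ccn2 read 414, 255, 225 and 89.1 in time order, and it was the gene with the unadjusted p under 0.05 (limma adjusted p = 0.883). Tiparp read 87.9, 239, 60.1 and 201, out of time order. In the AP-1 list 3 of 6 slopes were above 0 (median 0.00) and 0 passed. The differences there were 1.18 for Fosl2 and 0.04 for Fosb, and -0.29 for Junb and -0.06 for Jund. That of Fosl2 includes a 2 hr value raised to the floor. The other Junb probe set, too dim to be tested, had a difference of the opposite sign, 0.62.

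Genes that carry the signal to these promoters had 5 of 16 tested slopes above 0 (median -0.04 log2 units per hr), and 0 passed while 1, that of Camk4, had an unadjusted p under 0.05. Mef2b, a calcium responsive transcription factor, and Map2k2, a kinase of the ERK cascade, had the largest positive differences of later from earlier times, 0.76 and 0.34 log2 units. Camk2a and Camk4, both calmodulin dependent kinases, had the largest negative ones, at -0.63 and -0.57. Camk2a read 154, 137, 161 and 53.2 in time order, the 6 hr value alone being low and under the floor. Its other probe set was under the floor on every array. Camk4 read 173, 166, 163 and 79.2 in time order (limma adjusted p = 0.963), so the 6 hr array alone was low. None of the 3 Creb1 probe sets passed the filter on dim values.

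Synaptic partners of Arc and Homer1 had 4 of 9 tested slopes above 0 (median -0.01) and 0 passed. Sh3gl3, an endophilin that binds Arc, read 488, 1597, 779.6 and 363 at 1, 2, 4 and 6 hr and stood apart at 2 hr. The differences of later from earlier times were -0.73 log2 units for Sh3gl3 and -0.28 for Ryr2, a calcium release channel, and 0.13 for Sh3gl1 and 0.09 for Gria2, an AMPA receptor subunit. The value for Gria2 is that of its brightest probe set. Its other tested probe sets differed in sign, at -0.24 and 0.35.

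The activin pathway, in which the product of Inhba signals, had 7 of 8 tested slopes below 0 (median -0.10 log2 units per hr), and 0 passed the test or an unadjusted p under 0.05. Acvr2a, an activin receptor, read 457, 558.5, 359 and 306, and Smad4, the shared Smad of the pathway, read 637.5, 811, 380 and 655. Both were highest at 2 hr, where Inhba was lowest. There 5 of the 8 genes were highest, against 24.4% of all probe sets tested. The other Acvr2a probe set, too dim to be tested, was highest at 1 hr, at 172.5, and read 70.4 at 2 hr. Smad2, a receptor regulated Smad, read 326, 270 and 317 at 1, 2 and 6 hr and 474 at 4 hr, where Inhba also had its highest value. Tgfbr3, a co-receptor, had a difference of later from earlier times of 0.02 log2 units.

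Genes that act with Atf3 and Gadd45 in stress signalling had 5 of 9 tested slopes above 0 (median 0.01), and 0 passed while 1 had an unadjusted p under 0.05. That gene was Cdkn1a, a cell cycle inhibitor that binds Gadd45 proteins, whose brighter probe set read 260.4, 215, 185 and 76.5 in time order (limma adjusted p = 0.883). The other Cdkn1a probe set was nearly as bright and read 278, 132, 143 and 136. It was high at 1 hr alone and did not fall further at 6 hr. Xbp1, a factor of the unfolded protein response, differed by -0.60 log2 units between later and earlier times. Ddit3, a stress factor that pairs with Atf3, read 124, 201.5, 200 and 211, low at 1 hr, where Atf3 (104155_f_at) was highest. Mapk8, a stress activated kinase, had a difference of 0.29.

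Over the 4 arrays, the profiles most like those of the members were found by the root mean square difference of log2 values centred on each probe set's own mean. Among 6709 probe sets with 1 symbol, Egr2 had 1 within 0.1 log2 units, that of Ell2, a transcription elongation factor, at 0.0699. The Ell2 probe set read 98.2, 108, 297 and 121 at 1, 2, 4 and 6 hr. Atf3 (104155_f_at) had none within 0.1, and its closest was Shh at 0.126. The flatter members had many close profiles, 347 for Nr4a1 with Zkscan1 closest at 0.0155, and 207 for Egr1 (98579_at) with Prpf6 closest at 0.0138. For Homer1 (104499_at) there were 36, led by Anxa6 at 0.00668, and for Gadd45g 32, led by Emid1 at 0.0109. Inhba had 132 (Tcta, 0.0108) and Btg2 78 (Usp5, 0.0251). The Gadd45b probe sets had 75 (Nagk, 0.0298) and 55 (Cwc15, 0.03). With 4 points a profile, closeness is a description of these arrays.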

How the data were processed

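Total RNA from CA1 of 4 control samples was read on 1 single-channel array each. The authors deposited 1 linear intensity per probe set and array. How probes were summarised, and any detection calls, are not given in the labels. The trimmed mean (2% at each end) of the deposited intensity values was 500.3 on every array, a reading from the values that shows scaling to a common level, which hides any shift common to most genes. The array annotation gave 1 symbol to 10855 probe sets, several to 396 and none to 1237. All 9 member genes with a probe set matched RefSeq by Entrez identifier.

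Values were floored at 54.6, log2 transformed and filtered, which left 7453 of 12422 non-control probe sets (66 controls were left out). A slope over hours was fitted with limma 3.58.1 in R 4.3.3 (lmFit, eBayes) and tested on simulated data. Outside the members, each list gave the 2 genes at either extreme of the later-minus-earlier difference (mean of 4 and 6 hr minus mean of 1 and 2 hr), and each member gave its closest profile. Fos, Creb1, Ttr, Wfs1, Prox1, Kl, Folr1 and Foxj1 were added after their values were seen. The members and lists were chosen with earlier results of these data known. No source says that arrays come from separate animals, so p-values reflect the spread of these 4 arrays, possibly technical, and the number of arrays limits the precision. Alternatives covered scaling, floor, filter, arrays left out, time scale and variance model.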

Additional observations from a re-analysis of the deposited data

How the results depend on the processing

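The count of probe sets past limma's trend test was 0 under all 15 alternatives. Of 141 member slopes under alternatives, 134 kept their sign and none passed. The Gadd45b (102779_at) slope was -0.0032 log2 units per hr with quantile normalization and -0.00632 with a common median, and ran from -0.0234 to 0.185 when 1 array was left out. On leaving out 1 array that of Egr2 ran from -0.00719 to 0.544 and that of Atf3 from -0.124 to 0.0185, with the 2 or the 4 hr array left out, since Atf3 was too dim to be tested without the 1 or the 6 hr array. The causes were not tested. Members apart on 1 array numbered 2 with no filter on dim probe sets (9.58% of all probe sets tested), 0 with a filter at the 60th percentile (1.65%; Egr2 was then not among the 5 tested), 3 at 0.58 log2 units (21.9%) and 1 to 2 when 1 array was left out (8.9% to 10%). Members with a range of 1 log2 unit or more numbered 1 with the floor at the 40th percentile (19.6%), 4 with no filter (29.2%), 0 with the 60th percentile filter (10.9%), 8 at 0.58 log2 units (55.6%) and 1 to 2 when 1 array was left out (17.2% to 18.4%). The filter settings change how many member probe sets enter, 14 with none and 5 at the 60th percentile. No paired analysis was possible because each time has 1 array and all share the same number. Signal over background limits Homer1 (104498_at), Egr1 (161802_i_at) and both dim Atf3 probe sets, which lay under the floor on 1 to 4 arrays.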

Other observations

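Homer2 and Homer3, paralogs of Homer1, gave almost the same intensity on every array, with differences between 0.0168% and 2.94%, through separate probe sets whose sequences were not used here. The Homer2 probe set carries the suffix _i_at.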
